A study of Mus musculus with 14 samples.

Results

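The mitochondrial ribosomal protein genes of the mouse were examined for acetylation of histone H3 at lysine 27 (H3K27ac) at their promoters in the retina at embryonic day (E) 14. Members were the protein-coding genes of the GENCODE vM1 annotation of mm9, on chromosomes 1 to 19, whose symbol begins with Mrpl or Mrps and a number, without pseudogenes. The rule found 76 genes among 21418 protein-coding genes, and the remaining 21342 served as the comparison. A peak, a region called as enriched for the mark, was assigned to a gene when it overlapped a window of 1000 bp on either side of the gene start, the annotated 5′ end of the gene. The members had 73 peaks of the 13463 in the list, and 8996 further peaks lay at the starts of other protein-coding genes.

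The material was retina of CD1 mice at E14 with no allele or treatment named. The sample labels name retinal progenitor cells, whereas the study's methods describe chromatin from whole dissected retinas. Chromatin of 2 replicate libraries was precipitated with an antibody to H3K27ac and compared with 1 isotype control library. Both replicates were pooled before peaks were called, so that each peak has a single value with no replicate error, and no test between conditions could be made.

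The mitochondrial ribosome (mitoribosome) translates the few proteins encoded in mitochondrial DNA, which are core subunits of the respiratory chain and of ATP synthase. Its ribosomal RNAs are mitochondrial, but its proteins are encoded in the nucleus, made in the cytosol and imported, those of the large subunit mostly under Mrpl symbols and those of the small subunit mostly under Mrps symbols. H3K27ac marks active promoters and enhancers, and at promoters it typically flanks the nucleosome-depleted start site. A promoter is divergent when it lies between a pair of genes that are transcribed away from each other, and here a gene counted as divergent when a protein-coding gene on the opposite strand began within 1000 bp upstream of its start.

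Sequences between the starts of divergent pairs are shown first, since a single peak covered both starts at most of these pairs. They are given on mm9 along the strand of the mitochondrial ribosomal protein gene, from the start of the partner gene to that of the member. Capitals mark letters of the motifs searched for, on either strand, and overlapping matches run together. The ETS family was searched for by the letters CGGAAG. NRF1 was represented by GCATGCGC and YY1 by the letters AAGATGGC. The cyclic AMP response element was written as TGACGTCA, the E-box as the letters CACGTG and the Sp1 site as the letters GGGCGG. The CCAAT box was searched for by its own letters and the TATA box by the letters TATAAA. ZNF143 was represented by the letters ACTACAA, and homeobox proteins by the letters TAATTA. Matches of different motifs could overlap and were counted separately. The pairs shown were chosen from those with starts 27 to 217 bp apart, for their different motifs.
Mrps18c and Helq, chr5:101227619-101227646, plus strand: tgaCTTCCGgcccgggaagcgcgggaag
Mrps18b and Ppp1r10, chr17:36053334-36053379, minus strand: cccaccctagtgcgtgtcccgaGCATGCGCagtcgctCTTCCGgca
Mrps27 and Ptcd2, chr13:100114633-100114741, plus strand: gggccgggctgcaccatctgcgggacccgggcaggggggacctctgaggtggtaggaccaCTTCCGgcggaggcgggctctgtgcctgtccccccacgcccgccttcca
Mrpl37 and Cyb5rl, chr4:106739473-106739593, minus strand: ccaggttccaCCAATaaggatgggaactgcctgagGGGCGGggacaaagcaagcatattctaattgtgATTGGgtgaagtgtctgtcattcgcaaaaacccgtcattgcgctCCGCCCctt
Mrpl49 and Fau, chr19:6057758-6057893, minus strand: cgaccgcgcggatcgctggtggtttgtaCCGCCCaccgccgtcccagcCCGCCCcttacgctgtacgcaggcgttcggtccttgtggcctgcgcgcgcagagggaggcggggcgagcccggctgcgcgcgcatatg
Mrps12 and Sars2, chr7:29526839-29527010, minus strand: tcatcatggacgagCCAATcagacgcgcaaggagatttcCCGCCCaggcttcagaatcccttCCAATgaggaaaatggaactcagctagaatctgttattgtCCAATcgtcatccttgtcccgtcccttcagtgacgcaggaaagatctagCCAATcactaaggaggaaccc
Mrpl51 and Ncapd2, chr6:125141613-125141819, plus strand: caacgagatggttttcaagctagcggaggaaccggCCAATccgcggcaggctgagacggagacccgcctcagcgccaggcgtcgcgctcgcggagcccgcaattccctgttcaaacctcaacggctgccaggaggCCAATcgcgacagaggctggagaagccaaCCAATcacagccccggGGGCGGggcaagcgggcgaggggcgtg
Mrpl32 and Psma2, chr13:14705304-14705521, minus strand: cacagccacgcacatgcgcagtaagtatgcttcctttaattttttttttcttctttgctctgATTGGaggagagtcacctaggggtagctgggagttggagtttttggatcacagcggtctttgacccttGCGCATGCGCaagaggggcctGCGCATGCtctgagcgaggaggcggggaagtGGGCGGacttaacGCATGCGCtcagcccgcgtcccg

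The shortest of these stretches, 28 bases between Mrps18c and the DNA helicase gene Helq, held 1 ETS match. Between Mrps18b and Ppp1r10, which encodes a regulatory subunit of protein phosphatase 1, an NRF1 match and an ETS match lay 16 and 3 bases from the Mrps18b start. The 172 bases between Mrps12 and Sars2, the mitochondrial seryl-tRNA synthetase, held 4 CCAAT boxes, and the 207 bases between Mrpl51 and the condensin subunit gene Ncapd2 held 3. The stretch between Mrpl32 and Psma2, a subunit of the proteasome, held 4 NRF1 matches, of which the 2 farthest from the Mrpl32 start overlapped at the palindromic core. Matches are a description of the letters and not of bound factors.

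Nearly all members had an H3K27ac peak. A peak was found at 74 of the 76 genes, or 97.4% (95% Wilson interval 90.9 to 99.3%), against 47.9% of the other protein-coding genes. Peaks with a fold enrichment over the control of at least 4 and a q of at most 0.001 are called high-confidence here. The study's methods use these limits together with a limit on p and a requirement for replicates, which a pooled list cannot meet. The number of members with such a peak was 55, or 72.4% (61.4 to 81.2%), against 36.4% of the other genes. The intervals of both shares, which cover counting error only, did not reach the background. The background includes genes that are silent in the retina, and the level of transcription of these genes was not used here. No member had more than 1 peak in its window, and only 1 of the 10232 other genes with a peak did.

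In each subunit, all genes but 1 had a peak. A peak was present at 48 of 49 genes of the large subunit and at 25 of 26 genes of the small subunit, leaving out Mrps36, whose product is now known as a component of the 2-oxoglutarate dehydrogenase complex. High-confidence peaks were present at 71.4% of the large subunit genes (57.6 to 82.2%) and at 73.1% of the small subunit genes (53.9 to 86.3%). All 29 genes of proteins classed here as specific to mitochondrial ribosomes had a peak. So did 44 of the 46 genes classed as having a bacterial homologue. Of the Mrps18 genes, Mrps18b was placed in the first class and Mrps18a and Mrps18c in the second. The members lay on 17 chromosomes, with 10 on chromosome 11, 8 on chromosome 17 and 7 on chromosome 6.

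The genes with no peak at the annotated start were Mrpl33 (ENSMUSG00000029142.8), a small protein of the large subunit, and Mrps24 (ENSMUSG00000020477.4), a protein of the small subunit. Both have further annotated transcript starts, and a peak lay at those. The Mrpl33 record starts at 31899308 on chromosome 5, and the nearest peak was 16904 bp away. It ran from 31916212 to 31916797, was 586 bp long with a pileup of 14.7 and a fold enrichment of 6.72, and covered 5 of the 10 annotated starts of Mrpl33, which lay 17004 to 17078 bp downstream of the first. The Mrps24 record starts at 5615683 on chromosome 11, on the minus strand, and the nearest peak was 7977 bp away. That peak ran from 5607165 to 5607706 over 4 of its 5 annotated starts, and was 542 bp long, enriched 4.24-fold. Its pileup of 22.8 was higher than that of 92.2% of the other promoter peaks. With every annotated transcript start taken into account, all 76 members had a peak, against 50.3% of the other genes. Among members with a peak, the peaks farthest from the start were those of Mrps33 (160 bp), Mrpl1 (134 bp), Mrpl45 (133 bp) and Mrpl9 (123 bp).

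The 150 bases upstream of the first transcript start under each of these peaks, with the start as the last base, are shown because they differ from the sequence at the start of the gene record.
Mrpl33, chr5:31916162-31916312, plus strand: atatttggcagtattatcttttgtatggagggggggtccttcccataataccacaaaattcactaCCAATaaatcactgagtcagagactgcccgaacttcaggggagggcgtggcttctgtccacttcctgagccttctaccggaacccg
Mrps24, chr11:5607693-5607843, minus strand: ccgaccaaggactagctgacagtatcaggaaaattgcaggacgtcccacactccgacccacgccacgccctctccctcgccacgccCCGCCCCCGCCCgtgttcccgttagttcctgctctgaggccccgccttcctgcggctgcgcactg
The stretch at Mrpl33 held 1 CCAAT box, 81 bases upstream of the start, and that at Mrps24 held 2 adjoining Sp1 matches.

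Pileup is the mean number of fragments over the peak after the authors' caller had scaled the ChIP library to the size of the control. In a tissue made of several cell types, the share of cells with the mark and its level per cell cannot be told apart in this value. The median pileup of the members was 16.4 (quartiles 14.9 and 18.8, 73 peaks), against 16.6 (13.8 and 19.6) at the 8996 other promoter peaks. The 95% interval of the members' median, 15.6 to 17.5, held the median of the other peaks. The members spanned 10.7 to 25.1, a ratio of 2.34, whereas the other peaks ran from 6.29 to 40.2. Below the lower quartile of the other peaks lay 14 members and above the upper quartile 16, 1 was under their 10th percentile and 4 were over their 90th.

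The highest pileup was that of Mrpl48 (ENSMUSG00000030706.9), a large subunit gene whose 5′ end overlaps that of Rab6, a GTPase of Golgi traffic, by 887 bp. Its peak on chromosome 7, from 107756132 to 107757485, had a pileup of 25.1 and a fold enrichment of 9.53, the highest of the members and above 99.8% of other promoter peaks. It was followed by Mrps35 of the small subunit with 24.2, Mrpl3 of the large subunit with 22.5, and Mrps7 and Mrps5 of the small subunit with 22.5 and 21.7. High pileup did not go with high fold enrichment throughout this group. Mrps35 had a fold enrichment of 3.93, at percentile 21.3, and Mrps7 one of 7.02, at percentile 93.6. The lowest pileup was that of Mrpl35 with 10.7 (percentile 7.42), followed by Mrpl22 with 11.9, Mrpl16 and Mrpl50 with 12.6 each, and Mrpl30 with 12.6. All 5 are genes of the large subunit. The subunits as groups overlapped, with medians of 16.6 (95% interval 15.6 to 17.8) and 15.8 (15.3 to 18.4).

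Upstream sequences of the genes at both ends of this order, 150 bases ending at the start, show how unlike they were in composition. Within the 300 bases around the start, GC content was 67.7% at Mrpl48, 50.7% at Mrps35 and 46.0% at Mrpl35.
Mrpl48, highest pileup, chr7:107756811-107756961, minus strand: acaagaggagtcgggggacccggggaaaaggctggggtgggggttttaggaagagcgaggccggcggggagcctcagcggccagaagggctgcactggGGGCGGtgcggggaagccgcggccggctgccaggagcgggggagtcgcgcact
Mrps35, next highest, chr6:146991136-146991286, plus strand: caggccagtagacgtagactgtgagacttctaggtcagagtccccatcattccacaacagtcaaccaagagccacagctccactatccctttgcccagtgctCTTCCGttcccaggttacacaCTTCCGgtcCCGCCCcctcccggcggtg
Mrpl35, lowest, chr6:71773804-71773954, minus strand: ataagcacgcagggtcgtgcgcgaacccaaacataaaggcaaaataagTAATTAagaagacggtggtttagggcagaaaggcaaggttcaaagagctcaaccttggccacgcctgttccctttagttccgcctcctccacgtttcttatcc
The Mrps35 stretch held 2 ETS matches and 1 Sp1 match within 50 bases of the start, the Mrpl48 stretch held 1 Sp1 match, and the Mrpl35 stretch held the single homeobox match found among the members.

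**Figure D1:**
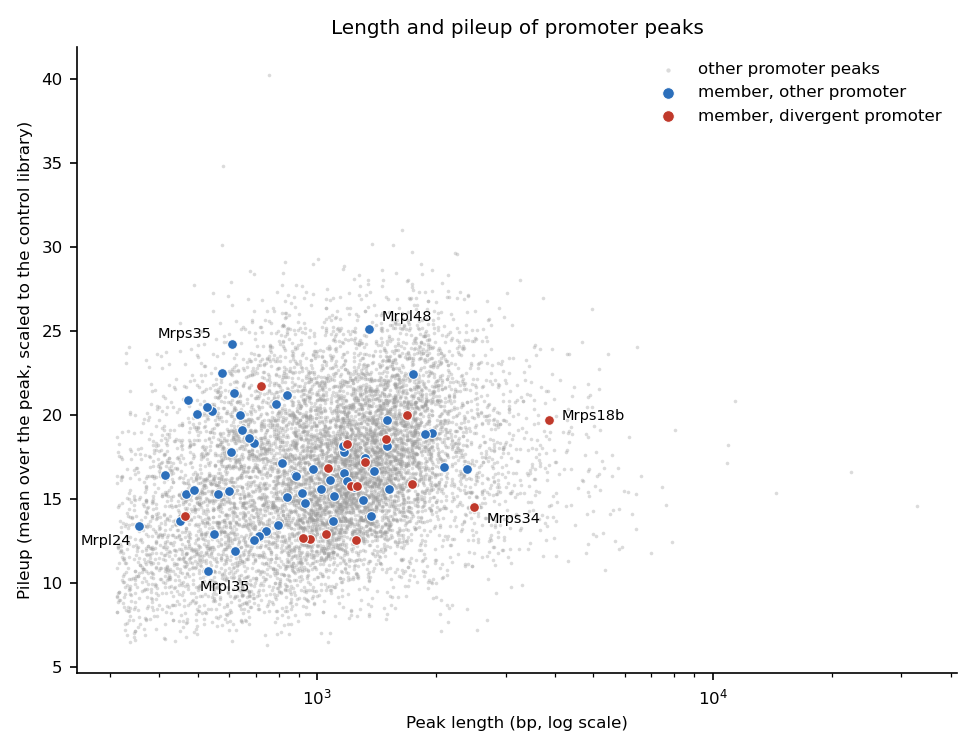
Peak length (bp, log scale) against pileup (mean over the peak after scaling to the control library) for the 8996 other promoter peaks (grey) and the 73 member peaks (blue, or red at divergent promoters). The members lie within the cloud of other peaks between pileups of 10.7 and 25.1, and Mrps18b stands out by its length of 3855 bp.

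The member peaks had a lower median length than other promoter peaks. Their median length was 931 bp (quartiles 621 and 1306, 95% interval of the median 786 to 1164), against 1098 bp (727 and 1521), which lay inside that interval. Of the 73 peaks, 26 were shorter than the lower quartile of the other peaks and 9 were longer than the upper quartile. The median fold enrichment was 4.69 (3.99 and 5.49), against 4.75. Across the member peaks, length and pileup had a Spearman rho of 0.116, against 0.321 across the other peaks. Length and fold enrichment had a rho of 0.396, against 0.343, and pileup and fold enrichment one of 0.112, against 0.462. These relations are across peaks of 1 pooled library pair and share its depth and control.

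The longest peak was that of Mrps18b (ENSMUSG00000024436.10) on chromosome 17, with 3855 bp, from 36052949 to 36056803. It reached from 385 bp inside the gene to 3469 bp upstream, across the start of Ppp1r10 and into that gene, so that its midpoint lay 1542 bp upstream of the Mrps18b start. The peak of Mrps34, a small subunit gene on the same chromosome, was 2498 bp long and extended in the other direction, to 1916 bp downstream. Mrpl34 (2401 bp), Mrpl54 (2090 bp) and Mrpl14 (1956 bp), all of the large subunit, followed. In length these peaks ranked at percentiles 89.0 to 98.8, but the fold enrichment of Mrpl34, 3.66, was at percentile 13.7. The shortest peaks were at Mrpl24 (355 bp), Mrpl42 (413 bp), Mrpl19 (452 bp), Mrpl10 (465 bp) and Mrps22 (467 bp), with pileups of 13.4 to 16.4.

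Divergent promoters made up a larger share of the members than of other genes. There were 16 members at a divergent promoter, or 21.1% (13.4 to 31.5%), against 7.24% of the other genes. Among genes with a peak only, the shares were 21.6% (13.8 to 32.3%) and 13.8%, so that the lower bound of the interval lay at the value of the other genes. All 16 divergent members had a peak that covered their start, and 13 of the 16 peaks covered the start of the partner as well. Of divergent promoters of other genes, 91.1% had a peak, and among those with a peak it covered the start in 91.1%. Both values lay inside the members' interval of 80.6 to 100%. The share of other pairs with both starts covered is not given here. Genes of proteins classed as specific to mitochondrial ribosomes, Mrps18b among them, were divergent in 9 of 29 (31.0%, 17.3 to 49.2%). Those classed as having a bacterial homologue were divergent in 7 of 46 (15.2%, 7.57 to 28.2%), and the intervals overlapped.

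The starts of the pairs were 3 to 935 bp apart, with a median of 124 bp, and 15 of the 16 were within 300 bp. The closest was that of Mrps21 and C920021L13Rik, with starts 3 bp apart under a peak of 1052 bp, and the farthest that of Mrpl41 and Pnpla7. No sorting of the 16 partners by function was made, and only some of them are described here. Among them, Sars2 charges mitochondrial serine tRNA, Ptcd2, beside Mrps27, is a mitochondrial RNA-processing protein, and Fau, beside Mrpl49, encodes the cytosolic ribosomal protein S30 as part of a fusion protein. Hira, a histone chaperone gene, began 270 bp from Mrpl40. The peak between Mrpl49 and Fau had the highest fold enrichment of the divergent group, 7.08, and the lowest was 3.55 between Mrps18c and Helq.

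The peaks that did not reach the partner's start were those of Mrpl10, Mrps5 and Mrpl41. At Mrpl10 the peak began at the first base of the gene, 153 bp from the start of Lrrc46. At Mrps5 it ended 22 bp short of the start of Zfp661, and at Mrpl41 it ended 205 bp short of the start of Pnpla7. A further 12 members began inside a gene of the opposite strand that also began inside them. In 1 of these pairs both genes were members, Mrpl46 and Mrps11, whose starts overlap by 412 bp and share a peak of 1241 bp with a pileup of 15.7 and a fold enrichment of 6.45. Others were Mrpl47 with Ndufb5, a complex I subunit (157 bp), and Mrpl43 with Peo1, the mitochondrial DNA helicase Twinkle (369 bp). With both arrangements counted, 36.8% of the members had such a partner, against 11.0% of the other genes. The peak of 32 of the 74 members (43.2%, 32.6 to 54.6%) also reached the window of another gene, against 23.5% of the other genes with a peak.

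**Figure D2:**
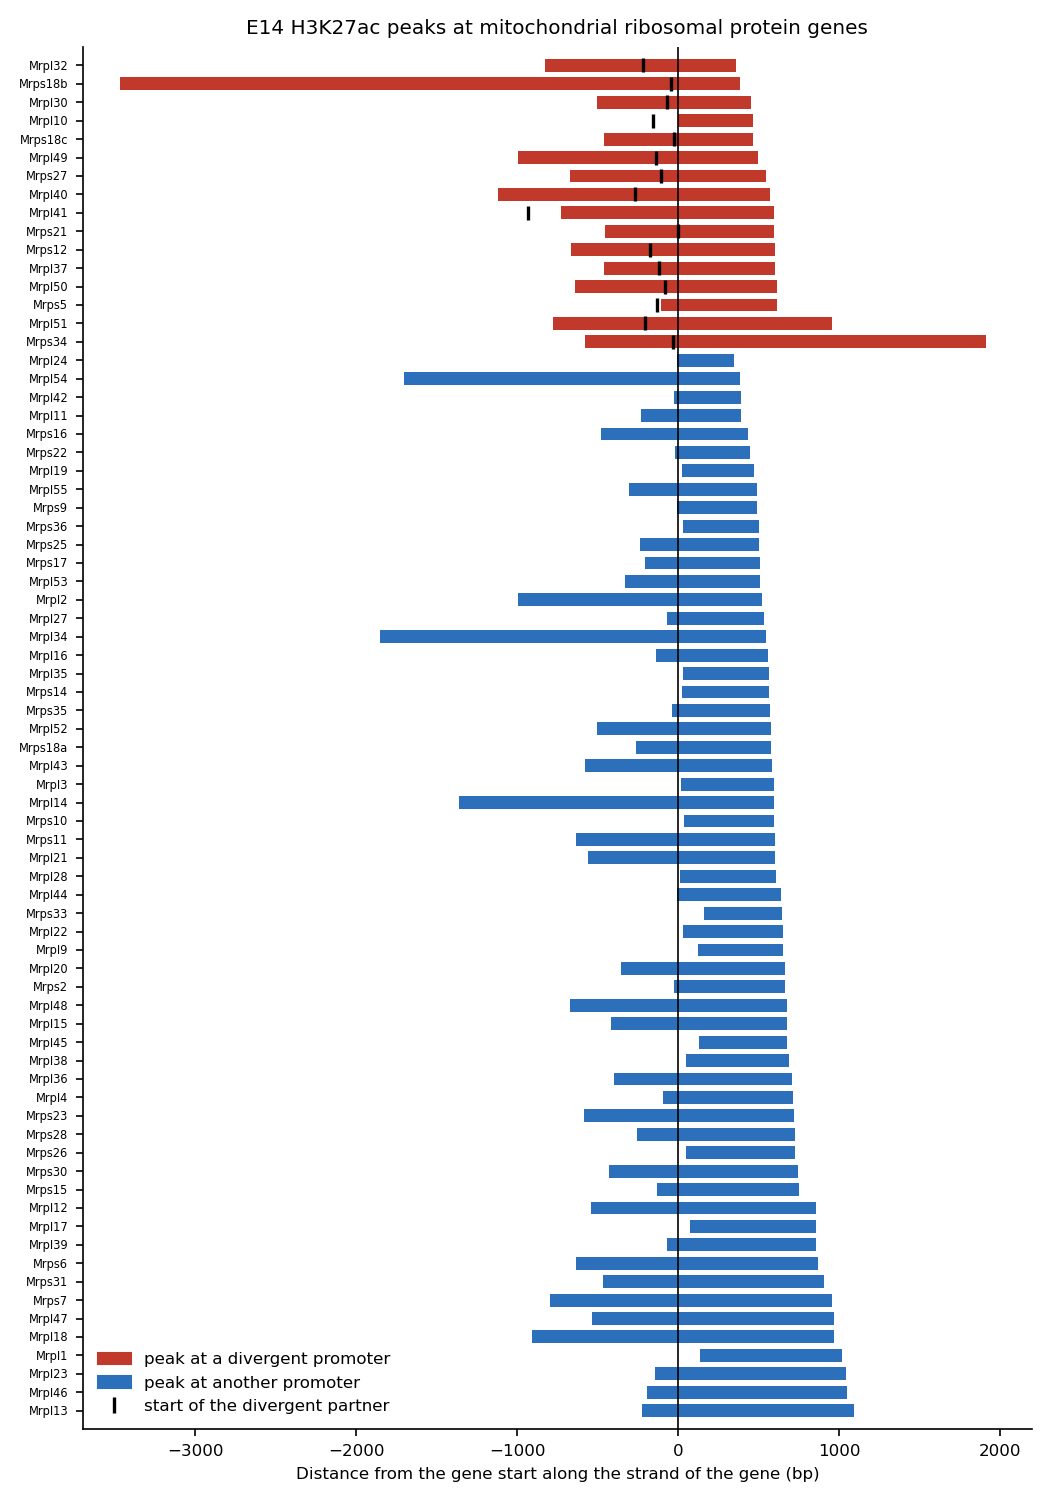
Extent of the H3K27ac peak at each of the 74 members with a peak, as distance from the gene start along the strand of the gene (bp), ordered by the downstream end within the divergent (red) and the other (blue) promoters. Black ticks mark the start of the divergent partner, and 15 blue bars begin to the right of the start.

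The peaks lay mostly downstream of the start. The peak midpoint was downstream of the gene start in 59 of 74 members (79.7%, 69.2 to 87.3%), against 75.7% of other genes with a peak. The median offset of the midpoint was 160 bp downstream (quartiles 25.9 and 308.5), against 193.5 bp, and the median distance in either direction was 232 bp against 243 bp. Measured from the nearest annotated transcript start, the median offset was 69.2 bp, against 71 bp, and the median distance 134 bp, against 154 bp. A peak covered the start itself in 59 members, or 79.7%, against 79.8%. In the other 15 members (20.3%) the peak began downstream of the start, against 18.2% of the other genes with a peak. In no member did the peak end upstream of the start (interval 0 to 4.9%). This occurred in 2.05% of the other genes, a value inside that interval.

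Divergent and other members differed in position. At the 16 divergent promoters the median offset was -20 bp (quartiles -109 and 76.6), and 7 midpoints were downstream. At the 58 other promoters the median was 215 bp downstream (quartiles 92.1 and 315), and 52 midpoints, or 89.7% (79.2 to 95.2%), were downstream. The same order was seen in the other genes, with medians of -81.5 bp and 231.5 bp. Divergent members had a median length of 1238 bp (95% interval 960 to 1691), against 839 bp (675 to 1078) for the remaining members, while the pileups were 15.8 and 16.5. Other genes of the same class had medians of 1406 and 1063 bp, which lay inside those intervals. A peak at a divergent promoter belongs to both genes of the pair, so its length is not that of the member alone.

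**Figure D3:**
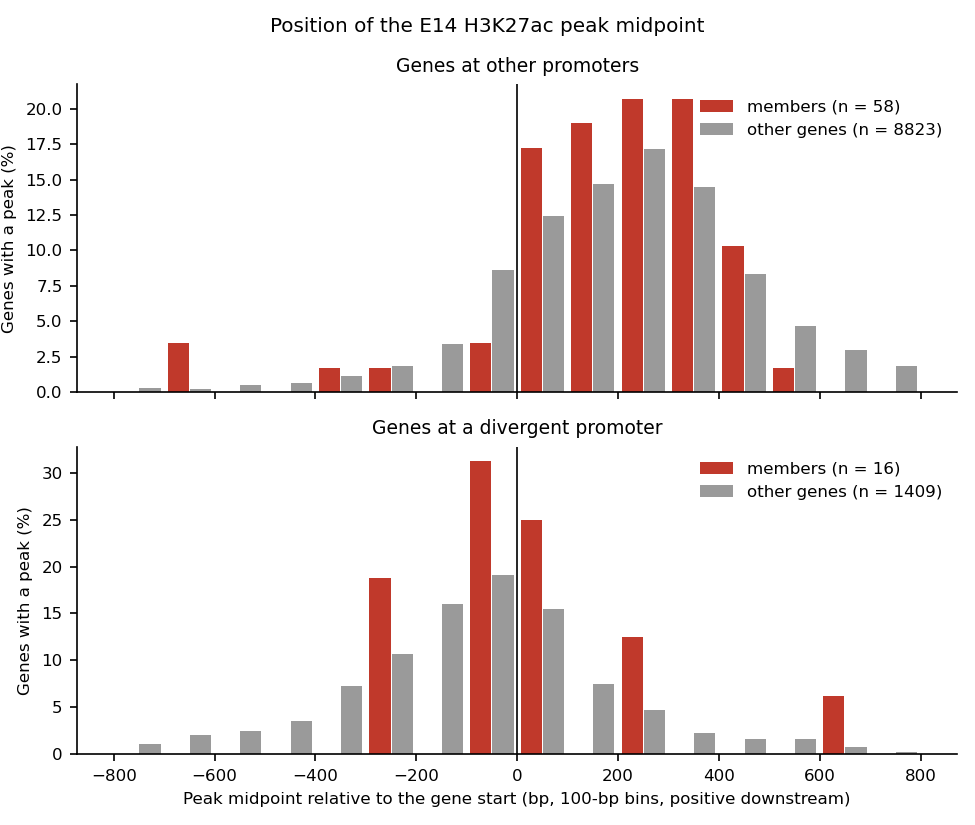
Percentage of genes with a peak by the position of the peak midpoint relative to the gene start (bp, 100-bp bins, positive downstream), for members (red) and other genes (grey) at other promoters (top) and divergent promoters (bottom). Midpoints beyond 800 bp, that of Mrps18b among them, are counted in the percentages but not drawn, and member midpoints lie mainly right of the start in the top panel and on both sides of it in the bottom panel.

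The largest offsets upstream were those of Mrps18b (-1542 bp), Mrpl54 (-659.5 bp) and Mrpl34 (-652 bp), whose peaks each reached the window of a further gene, Ppp1r10, Apba3 and Abhd8. The largest downstream were those of Mrps34 (667.5 bp), Mrpl1 (576.5 bp) and Mrpl17 (466.5 bp). The peak of Mrpl1, a large subunit gene on chromosome 5, began 134 bp downstream of the start and was 87.2% intronic by its bases. The 15 peaks that began downstream had a median length of 562 bp, against 1103 bp for those that covered the start. Their pileups were 16.4 and 16.5. The same order of lengths was seen in the other genes, with medians of 606 and 1212 bp and pileups of 15.3 and 17.0. Taken separately over the 74 members, the median share of a peak's bases was 32.1% in exons of the gene, 30.8% in introns and 32.9% outside the gene.

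Base composition at the starts was compared in the 300 bases from 250 upstream to 50 downstream. The 76 members had a median GC content of 57.7%, above the 55.3% of all other genes and below the 61.7% of other genes with a peak. Their median ratio of observed to expected CpG was 0.821, against 0.543 in all other genes and 0.798 in those with a peak. A start was called CpG-rich with a GC content of at least 55% and a CpG ratio of at least 0.65, and 41 members (53.9%, 42.8 to 64.7%) were, against 35.5% of other genes. Among genes with a peak the order was the opposite, with 55.4% of the members (44.1 to 66.2%) and 63.5% of the others, a value inside the members' interval. All 41 had a peak, against 85.8% of CpG-rich starts of other genes. Of the remaining starts, 33 of 35 members (94.3%, 81.4 to 98.4%) had a peak, against 27.1% of the others. This comparison by CpG content was added after the data were seen.

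Among the motif letters, those of the ETS family were present most often. The 6 bases CGGAAG occurred on either strand at 41 of the 76 members (53.9%, 42.8 to 64.7%), against 20.1% of all protein-coding promoters and 33.2% of those of other genes with a peak. Within 50 bases of the start they occurred at 40.8% of the members, against 11.2% and 19.2%. The YY1 letters AAGATGGC occurred at 11 members (14.5%, 8.28 to 24.1%), against 3.32% of all promoters and 4.85% of other genes with a peak. The NRF1 letters GCATGCGC occurred at 7 (9.21%, 4.53 to 17.8%), against 3.35% of all promoters, and the interval held the 5.93% of other genes with a peak. ETS proteins such as GABPA, also named NRF2, and NRF1 are known regulators of nuclear genes for mitochondrial proteins. At least 1 of these 3 motifs was present at 61.8% of the members, against 39.6% of other genes with a peak. Of the 47 members concerned, 41 held ETS letters, so this share mostly restates that of ETS.

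The Sp1 letters GGGCGG were at 47.4% of the members (36.5 to 58.5%), against 67.7% of other genes with a peak and 43.7% of all promoters. The CCAAT box was at 38.2% of the members and 37.6% of all promoters, and the TATA letters were at 5 members (6.58%), against 13.5% of all promoters and 6.0% of other genes with a peak. Homeobox letters, of the kind read by LHX2 and other retinal factors, were at 1 member (1.32%, 0.233 to 7.08%), an interval that held the shares of all promoters (4.84%) and of other genes with a peak (2.1%). Members with and without ETS letters had peaks of like size, with median lengths of 925 and 945.5 bp and pileups of 16.1 and 16.5.

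**Figure D4:**
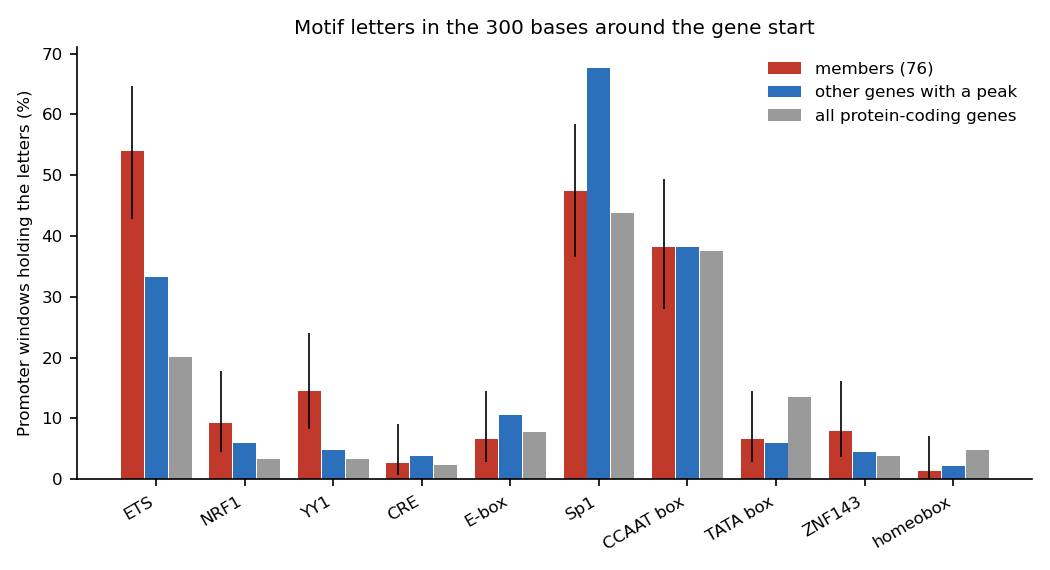
Percentage of promoter windows (300 bases around the gene start) that hold each motif's letters on either strand, for the 76 members (red, black lines are 95% Wilson intervals), other genes with a peak (blue) and all protein-coding genes (grey). ETS letters are at 53.9% of the members, against 33.2% of other genes with a peak.

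In each list of related machinery at least 88.2% of the genes had a peak, whereas the shares with a high-confidence peak ranged from 52.6% for the assembly and ribosomal RNA factors to 89.2% for complexes II to V and 100% for mitoribosome proteins under other symbols, beside 72.4% for the members. Mitoribosome proteins under other symbols had a peak in 7 of 7 genes, among them Aurkaip1, Chchd1 and the small subunit GTP-binding protein Dap3, whose peak had a pileup of 24.3. Factors of mitochondrial translation had one in 13 of 14, such as the elongation factor Gfm1 and not the release factor Mtrf1, and assembly and ribosomal RNA factors in 19 of 19, such as the helicases Ddx28 and Dhx30. Mitochondrial aminoacyl-tRNA synthetases had one in 15 of 17, with none at Aars2 and Cars2. For the respiratory chain, the numbers were 34 of 35 for complex I, with none at Ndufb8, and 37 of 37 for complexes II to V. Divergent promoters were found for 28.6% (16.3 to 45.1%) of the complex I genes and 24.3% of those of complexes II to V, beside 21.1% of the members. The shares were lower for the mitochondrial translation factors (7.14%), the assembly and ribosomal RNA factors (10.5%) and the genes of mitochondrial transcription and DNA maintenance (12.5%), which number 8 to 19 each, and their intervals overlapped that of the members.

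The cytosolic ribosomal proteins, which form the ribosome of the cytoplasm, had longer and higher peaks in the median than the mitochondrial ones. A peak was found at 73 of 79 of these genes (92.4%, 84.4 to 96.5%), against 97.4% (90.9 to 99.3%) of the members, with overlapping intervals. Both shares count peaks at the gene start only. A high-confidence peak was found at 88.6%, above the 72.4% of the members. The median length was 1428 bp, the median pileup 19.6 and the median fold enrichment 5.62, against 931 bp, 16.4 and 4.69 for the members. The medians of length and of pileup of the cytosolic genes lay above the 95% intervals of the members' medians. Their starts were divergent in 10.1% (5.22 to 18.7%). The cytosolic genes without a peak included Rpl10l, Rpl3l and Rpl39l, paralogues of other ribosomal protein genes, and Rpl13a, Rps10 and Rps2, whose nearest peak was 1173 to 6939 bp away.

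**Figure D5:**
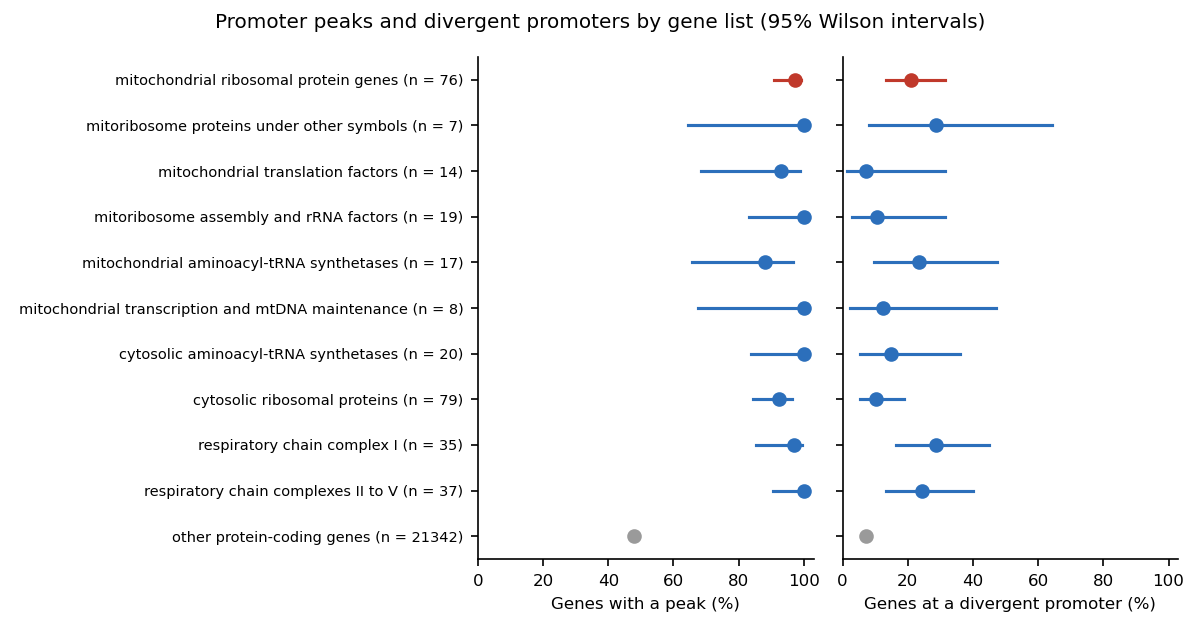
Percentage of genes with an H3K27ac peak (left) and at a divergent promoter (right) for the members (red), related gene lists (blue) and all other protein-coding genes (grey), with 95% Wilson intervals as lines. The lists lie at 88.2% or above for peaks, and the other protein-coding genes are at 47.9%.

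The labelled tissue was checked against marker genes. Peaks were present at 9 of 10 markers of retinal progenitors, all but Notch1, and at 5 of 5 of ganglion cells. They were present at 1 of 5 markers of the pigment epithelium (Pmel), 1 of 4 of lens (Bfsp1) and 1 of 4 of vessels (Kdr), and at none of 4 of microglia, 3 of blood and 3 of liver.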

How the data were processed

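The E14 H3K27ac ChIP-Seq was analysed, and no other sample was used here. The authors aligned reads to mm9 with Bowtie2, pooled both replicates and called broad peaks against the isotype control (MACS 2.1.0.20140616, 1 tag kept per position, cutoff for broad regions 0.1). After filtering 113543038 ChIP and 9210563 control tags remained. Per the file headers, the deposited values are peak length, pileup (signal, ChIP coverage scaled down to the control and averaged over the peak), fold enrichment (the ratio to the local control background) and −log10 p and q values. The shallower control makes fold enrichment coarse.

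Peaks were joined here to GENCODE vM1 starts (at least 1 bp overlap, 1000 bp either side). No peak ran past an mm9 chromosome end. Shares have 95% Wilson intervals and medians have order-statistic intervals, both covering counting error only. No p-value was computed from 1 pooled list. Sequences were read from the mm9 genome.

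Members and lists were chosen with earlier results of these data known. Named genes were those without a peak, the 5 highest and lowest in pileup and in length, the 3 largest offsets each way, genes that share a peak and divergent pairs, and the first of each related list by alphabet. Alternatives were other windows and limits, other definitions of start and of divergence, merged peaks and CpG-rich starts. The counting was tested on simulated data. Python 3.11.15, numpy 2.4.6, scipy 1.17.1, pandas 2.3.3, pysam 0.24.0 and matplotlib 3.10.9 were used.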

Additional observations from a re-analysis of the deposited data

How the results depend on the processing

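Of 49 alternative values, 36 stayed within the counting interval of the value reported. The share of members with a peak was 97.4%, and it was 100% with any transcript start (other genes 50.3%), 77.6% when the peak had to cover the start (38.3%), 72.4% with high-confidence peaks (36.4%) and 100% at CpG-rich starts (85.8%). The share with a high-confidence peak, 72.4%, was 59.2% when the peak had to cover the start (30.9%). The divergent share, 21.1%, was 36.8% with partners whose starts overlap (11.0%) and 31.7% at CpG-rich starts (14.9%), the latter setting chosen after seeing the data. In each of these the members' share was above that of the other genes. The median offset of 160 bp turned to -20 bp at divergent promoters (-81.5 bp) and was 69.2 bp from the nearest transcript start (71 bp). The median distance either way, 232 bp, was 81.2 bp and 134 bp in these settings (164 and 154 bp). The median length of 931 bp was 1238 bp at divergent promoters (1406 bp), and the median fold enrichment of 4.69 was 5.20 with high-confidence peaks (5.14). The pileup stayed within its interval under every alternative run. The peak list holds 1 pooled value per peak, so the spread between the 2 replicates is unknown, and the control, with 9210563 tags against 113543038, limits fold enrichment. Gene starts are those of the annotation, which for 18 of the 76 members lists a single one.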
